A study of Danio rerio with 12 samples.

Results

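The hypoxia-inducible factor (HIF) alpha subunits and the enzymes that sense oxygen for them were followed in kidneys of adult zebrafish (Danio rerio). The 8 genes were chosen by symbol: the HIF alpha copies hif1aa, hif1ab, epas1a and epas1b, the prolyl hydroxylases egln2 and egln3, the ubiquitin ligase component vhl, and hif1an, the asparaginyl hydroxylase. All 8 were found among the 30238 genes of the files. RNA of whole kidney was sequenced in 9 samples from fish heterozygous for a pdx1 knockout (pdx1+/-) and 3 samples from wild-type fish. The labels name no allele, sex, age beyond adult, family or batch, and do not say whether a sample was 1 fish, so a p-value here reflects only how these samples vary, which may be technical. The genes were picked with earlier results on the 2 genotypes known, among them a lower mean of epas1b in pdx1+/- kidneys. Values that compare genotypes are therefore given as a description of these 8 genes.

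HIF alpha proteins are made continuously and, in the presence of oxygen, are hydroxylated on prolines by the Egln (PHD) enzymes, recognised by the Vhl protein and degraded. Hif1an, also called factor inhibiting HIF, hydroxylates an asparagine and so keeps HIF alpha from binding its coactivators. When oxygen falls these enzymes slow, HIF alpha accumulates, pairs with Arnt and switches on genes of glycolysis, vessel growth and iron handling, and egln3 is itself a known HIF target in mammals. Much of this control acts on protein stability, which RNA levels do not measure. The fish kidney holds nephrons, vessels and the main blood-forming tissue together, and in such bulk samples fewer cells of a type and less RNA per cell cannot be told apart.

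Totals ranged from 16041400 to 19483900 estimated counts in pdx1+/- libraries and from 17192500 to 17953300 in wild-type libraries. pdx1, the gene that differs between the genotypes and encodes a pancreatic transcription factor, had a count of 0 in 5 pdx1+/- samples and at most 10 in the others, against 14, 10 and 6 in the wild-type samples. All listed markers of proximal tubule (10 of 10), distal tubule (8 of 8) and podocytes (7 of 7) were detected. Ribosomal RNA took 5.71% to 9.10% of counts in pdx1+/- libraries and 4.1% to 5.64% in wild-type libraries, so this share did not overlap between the genotypes. Levels of ddc lay in 2 separate ranges within both genotypes, at 4330 CPM (counts scaled to a common library total) or more in pdx1+/- replicates 1, 3, 4, 6 and 9 and wild-type replicate 2, and at 220 CPM or less in the other 6 libraries. The part of either feature in the values below was not tested.

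The 8 genes spanned a wide range of levels, with hif1ab far above the rest. Levels of different genes were compared in TPM, a transcript abundance scaled for both length and library size. Over the 12 libraries, mean TPM was 53.1 ± 9.26 for hif1ab, 22.2 ± 3.84 for egln2, 17.1 ± 4.08 for hif1an and 16.9 ± 6.06 for egln3 (SD, n = 12). It was 13.2 ± 4.31 for epas1a, 10.8 ± 2.05 for vhl, 5.89 ± 2.08 for epas1b and 4.31 ± 1.36 for hif1aa (SD, n = 12).

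Each gene was set against the next lower one in mean TPM within the same library, in 7 comparisons. That order came from the same 12 libraries, and the p-values were not adjusted for choosing the pairs by it. hif1ab exceeded egln2 in 12 of 12 libraries, by 1.26 ± 0.37 on the log2 scale (SD; exact two-sided sign-flip permutation test, p = 0.000488, the smallest possible; adjusted over the 7, p = 0.00342). egln2 exceeded hif1an in 11 of 12 libraries, by 0.40 ± 0.26 (exact permutation test, adjusted p = 0.00342). vhl exceeded epas1b in 11 of 12, by 0.92 ± 0.58 (exact permutation test, adjusted p = 0.00342). epas1b exceeded hif1aa in 9 of 12, by 0.44 ± 0.55 (exact permutation test, adjusted p = 0.0385), and the adjusted p rose above 0.05, to at most 0.0769, without any 1 of pdx1+/- replicates 2, 3, 4, 6, 8 and 9 or wild-type replicates 1 and 2. The middle of the order was not resolved. hif1an and egln3 differed by 0.06 ± 0.34 (exact permutation test, adjusted p = 0.560), egln3 and epas1a by 0.37 ± 0.70 (adjusted p = 0.135, exact permutation test), and epas1a and vhl by 0.23 ± 0.58 (adjusted p = 0.233, exact permutation test). Without pdx1+/- replicate 7, the library with the least epas1a, the last difference was 0.36 (exact permutation test, adjusted p = 0.0205). This order is per length. In CPM, which are not, mean epas1b (14.4) was above vhl (8.41) and mean epas1a (37.6) above egln3 (21.5), while the other neighbouring pairs kept their direction. The p-values cover spread between libraries and not error in the lengths.

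**Figure D1:**
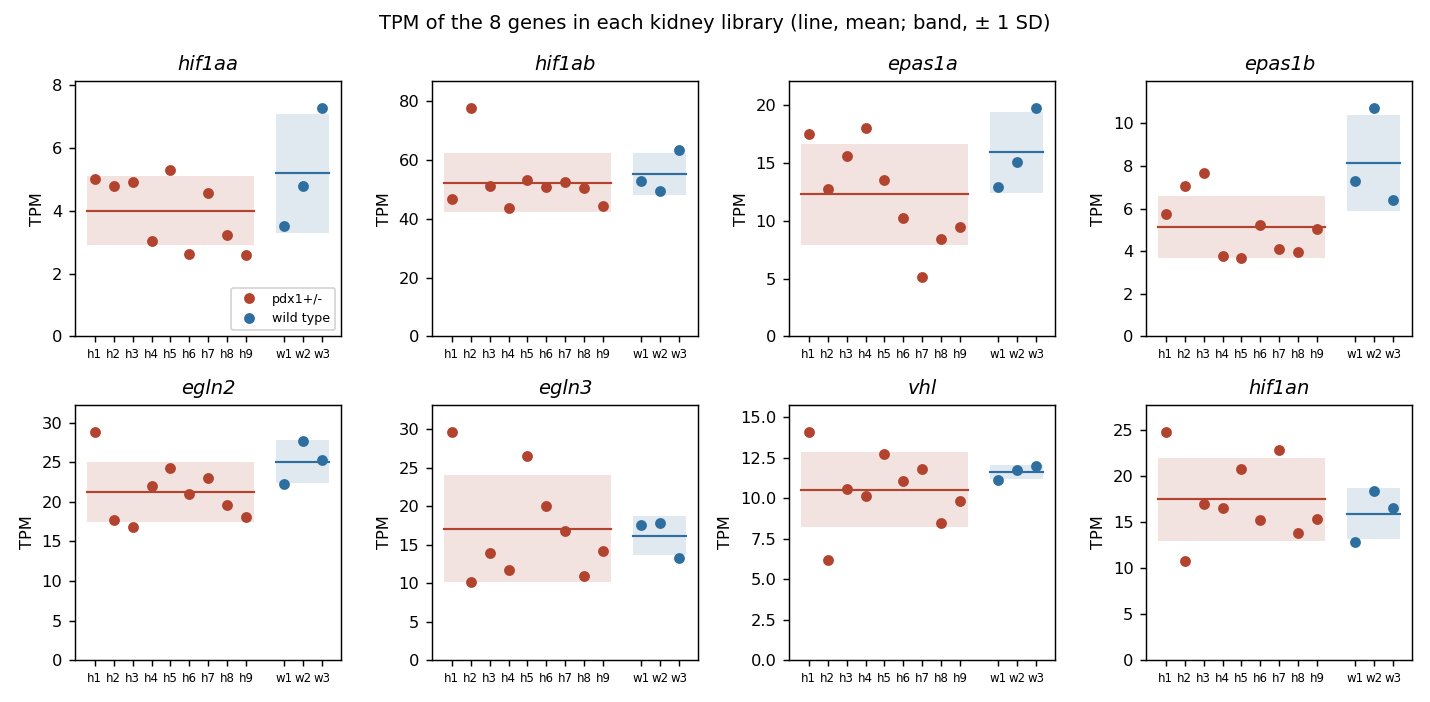
TPM of the 8 genes in each library, with pdx1+/- libraries (h1 to h9, red) on the left and wild-type libraries (w1 to w3, blue) on the right; points are libraries, lines are means and bands are ± 1 SD. The vertical scale differs between genes, from a maximum near 77.6 TPM for hif1ab to 7.27 TPM for hif1aa, and the groups overlap in every panel.

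hif1ab, a copy of the ubiquitous HIF-1 alpha subunit, was the most abundant of the 4 HIF alpha copies chosen, which leave out hif1al and hif1al2, described with the machinery. It had 43.6, 50.8 and 77.6 TPM (lowest, median, highest) in pdx1+/- kidneys, against 53.1, 49.5 and 63.5 TPM in wild-type replicates 1, 2 and 3, the order in which all wild-type values are given. The highest value belonged to pdx1+/- replicate 2, and the other 8 pdx1+/- libraries lay at 53.2 TPM or below. hif1aa, the second HIF-1 alpha copy, had 2.58, 4.57 and 5.29 TPM (lowest, median, highest) in pdx1+/- kidneys, against 3.52, 4.81 and 7.27 TPM in wild-type kidneys. The copies were thus far apart in each library: hif1ab held 92.9% ± 1.75 of the summed TPM of the 2 in pdx1+/- kidneys (SD, n = 9) and 91.5% ± 2.06 in wild-type kidneys (SD, n = 3), and never less than 89.7%.

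epas1a and epas1b are copies of the gene for HIF-2 alpha, the subunit known in mammals from endothelium and from erythropoietin-producing cells of the kidney. epas1a had 5.12, 12.7 and 18.03 TPM (lowest, median, highest) in pdx1+/- kidneys, against 12.9, 15.1 and 19.7 TPM in wild-type kidneys. Of the pdx1+/- libraries, 5 were below every wild-type library and the other 4 lay among them. epas1b had 3.66, 5.04 and 7.67 TPM (lowest, median, highest) in pdx1+/- kidneys, against 7.30, 10.7 and 6.40 TPM in wild-type kidneys. All 9 pdx1+/- libraries were below the wild-type mean, and 7 were below every wild-type library, with replicates 2 and 3 overlapping them.

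The share of the less abundant epas1 copy varied widely. epas1b held 30.8% ± 8.30 of the summed epas1 TPM in pdx1+/- kidneys (SD, n = 9), from 17.3% in replicate 4 to 44.5% in replicate 7. In wild-type kidneys it held 34.0% ± 8.67 (SD, n = 3), with 36.1%, 41.5% and 24.5% in replicates 1 to 3. The difference in means was smaller than the SD of either group. Among these 4 copies, hif1ab held 70.9% ± 6.13 in pdx1+/- and 65.5% ± 3.68 in wild-type kidneys, and epas1a 16.7% ± 5.76 and 18.7% ± 1.78. epas1b held 6.95% ± 1.5 and 9.82% ± 3.39, and hif1aa 5.43% ± 1.25 and 6.03% ± 1.46 (SD, n = 9 and 3). hif1ab held 61.8% or more in each of the 12 libraries.

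**Figure D2:**
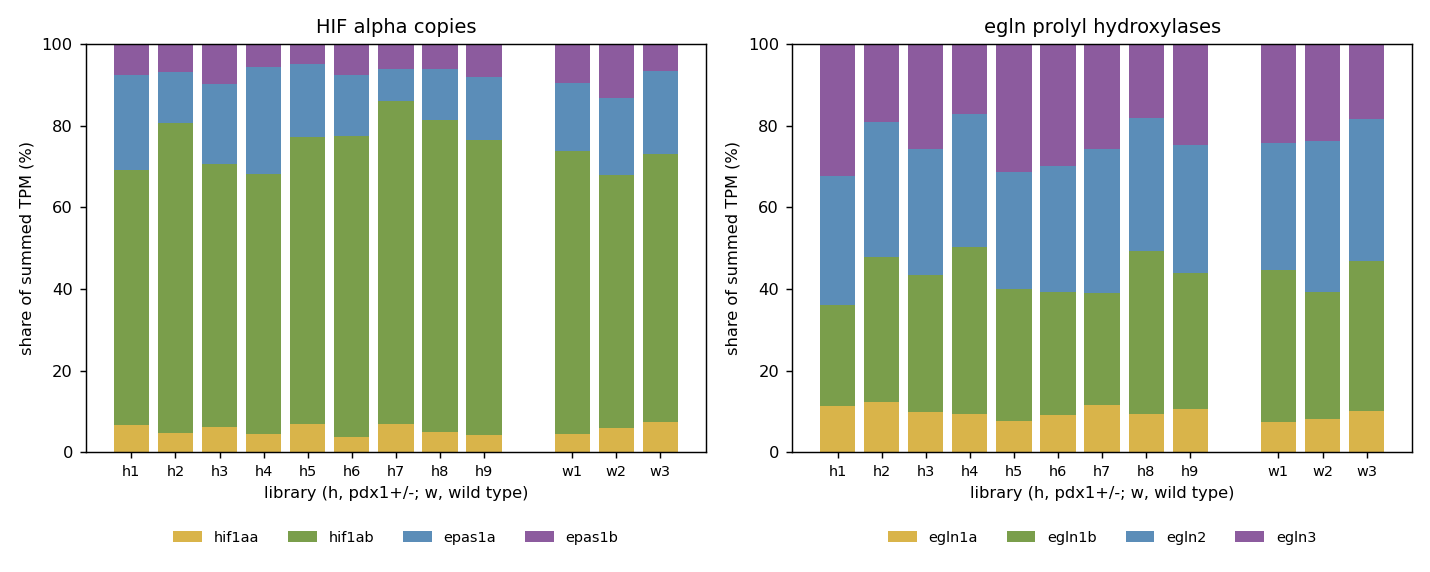
Share of summed TPM in each library, in percent, for the 4 HIF alpha copies (left) and the 4 egln genes (right), with pdx1+/- libraries (h1 to h9) left of wild-type libraries (w1 to w3). hif1ab fills 61.8% to 79.2% of each left-hand bar, which leaves out hif1al and hif1al2. egln1b, egln2 and egln3 each hold 17.3% or more of every right-hand bar.

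In TPM, no egln gene held as large a share of the 4 egln genes as hif1ab held of the 4 HIF alpha copies. That contrast depends on which genes are summed. hif1al, left out of the 4 HIF alpha copies, averaged 53.9 TPM over the 12 libraries, against 53.1 TPM for hif1ab. egln2, which encodes the enzyme called PHD1 in mammals, had 16.8, 20.9 and 28.8 TPM (lowest, median, highest) in pdx1+/- kidneys, against 22.3, 27.7 and 25.2 TPM in wild-type kidneys. egln3 (PHD3) had 10.1, 14.2 and 29.7 TPM in pdx1+/- kidneys, against 17.6, 17.8 and 13.3 TPM in wild-type kidneys. pdx1+/- replicates 1, 5 and 6 were above every wild-type library for egln3 and replicates 2, 4 and 8 below every one.

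With egln1a and egln1b, the PHD2 copies, added for comparison, egln2 held 31.9% ± 1.79 of the summed egln TPM in pdx1+/- kidneys and 34.3% ± 3.13 in wild-type kidneys. egln1b held 33.0% ± 5.29 and 35.0% ± 3.5, egln3 24.9% ± 5.74 and 22.2% ± 3.32, and egln1a 10.1% ± 1.45 and 8.6% ± 1.49 (SD, n = 9 and 3). These shares are per length. In CPM, which are not, egln2 held 59.8% in pdx1+/- and 62.1% in wild-type kidneys.

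vhl encodes the substrate-binding part of the ubiquitin ligase that marks hydroxylated HIF alpha. It had 6.16, 10.6 and 14.1 TPM (lowest, median, highest) in pdx1+/- kidneys, against 11.1, 11.7 and 11.98 TPM in wild-type kidneys. Both the highest and the lowest value of all 12 libraries were pdx1+/- samples, replicates 1 and 2. The 3 wild-type libraries agreed to 1.01% of their mean in CPM, which is less than the 7.98% expected from counting alone at a mean of 157 counts, so their spread understates the error. hif1an had 10.8, 16.6 and 24.8 TPM in pdx1+/- kidneys, against 12.9, 18.4 and 16.6 TPM in wild-type kidneys, again with replicates 2 and 1 at the ends.

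Variation between kidneys was larger than counting error for all 8 genes among the pdx1+/- samples. The coefficient of variation of CPM there was 38.8% for egln3, 35.6% for epas1a, 26.6% for hif1aa, 25.6% for hif1an and 25.4% for epas1b. It was 21.2% for vhl, 18.7% for hif1ab and 17.7% for egln2, against 1.80% to 9.32% expected from counting. These coefficients were not ranked beside other genes. A different measure, the biological variation fitted by edgeR over both genotypes, ranked between the 26.8th percentile (egln2) and the 70.6th (epas1a). That ranking took all 23732 genes tested, without matching them for level.

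vhl and hif1an varied together from kidney to kidney. In CPM, in pdx1+/- replicate 1, egln2, egln3, vhl and hif1an were each at their highest of the 12 libraries while hif1ab was at its lowest. In replicate 2, hif1ab was at its highest while egln3, vhl and hif1an were at their lowest and egln2 was next to lowest. Over the 9 pdx1+/- samples, vhl and hif1an were correlated in log2 CPM with Pearson's r = 0.937 (exact permutation p = 0.00022; adjusted over 8 relations, p = 0.00176) and Spearman's rho = 0.900 (exact permutation p = 0.00203; adjusted, p = 0.0162). Without replicates 1 and 2, the samples farthest from the median of vhl, r was 0.890 (exact permutation p = 0.00933; adjusted, p = 0.0746). The samples share the library scaling, and replicate 2 also had the highest summed macrophage markers (3500 CPM, against 2150 to 2620 CPM in the other pdx1+/- and 1700 to 2670 CPM in wild-type samples) and the lowest proximal tubule markers (3320 CPM, against 4700 to 6450 CPM and 4940 to 7510 CPM). It also had the highest mural and stromal (2350 CPM) and lymphocyte (82.8 CPM) sums of the 12, and the lowest erythroid sum of the pdx1+/- libraries (5100 CPM). Macrophage markers had r = -0.843 with vhl and -0.684 with hif1an (exact permutation, adjusted p = 0.376 and 0.398 over 120 relations). Without replicates 2 and 9 these were -0.379 and -0.0578. Erythroid markers had r = 0.668 with vhl and 0.676 with hif1an (exact permutation, adjusted p = 0.398 for both). Without replicates 2 and 3 these were 0.111 and 0.368. Proximal tubule markers had r = 0.621 with vhl and 0.47 with hif1an (exact permutation, adjusted p = 0.461 and 0.679). Without replicates 2 and 7 these were -0.37 and -0.57. The part of these markers in the correlation of vhl with hif1an was not tested.

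**Figure D3:**
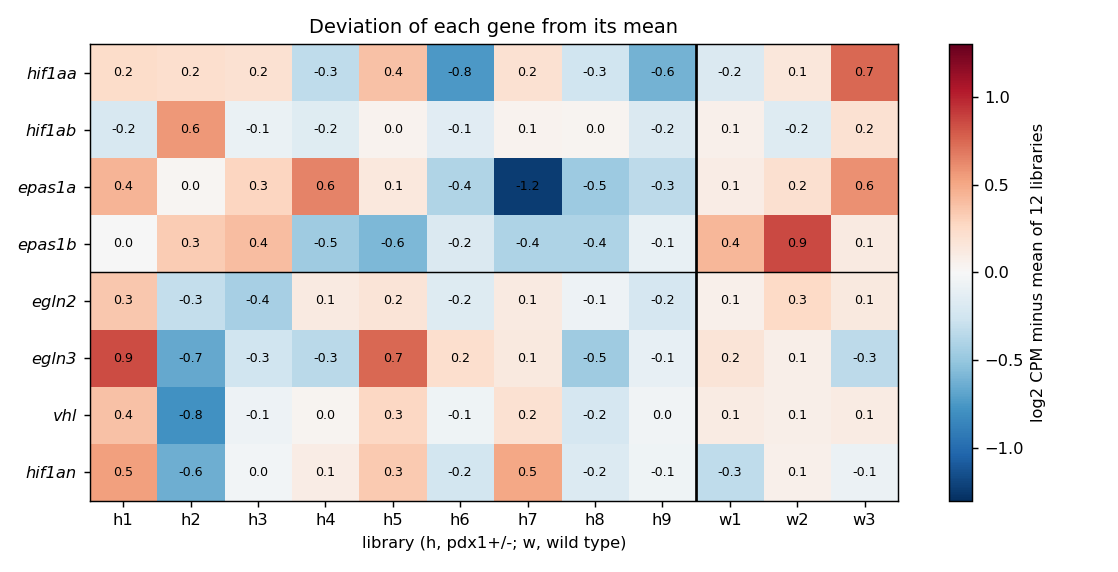
Log2 CPM of each gene minus its mean over the 12 libraries, with pdx1+/- libraries (h1 to h9) left of the vertical line and wild-type libraries (w1 to w3) right of it, and HIF alpha copies above the horizontal line. Columns h1 and h2 hold opposite colours for hif1ab and for the 4 lower rows.

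Of the 7 other relations in that family, 0 passed an adjusted p of 0.05. The paralog pairs were among them. epas1a and epas1b had r = 0.241 (rho = 0.133; exact permutation p = 0.537 and 0.744; adjusted, 0.613 and 0.850), and r = 0.394 without replicates 4 and 7. hif1aa and hif1ab had r = 0.429 (rho = 0.333; exact permutation p = 0.260 and 0.385; adjusted, 0.491 and 0.771), and r = 0.237 without replicates 6 and 9. For egln3, the HIF target, r was -0.332 with epas1b (rho = -0.217; exact permutation p = 0.380 and 0.581; adjusted, 0.506 and 0.850) and 0.211 without replicates 2 and 3. With hif1ab it was -0.462 (rho = -0.400; exact permutation p = 0.217 and 0.291; adjusted, 0.491 and 0.771), and -0.0945 without replicates 2 and 7.

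All 28 pairs of the 8 genes were then computed, a family added after the data were seen. The 6 pairs among egln2, egln3, vhl and hif1an had r from 0.695 to 0.937. By r over the 9 samples, 2 of them passed after adjustment over the 28, vhl with hif1an (exact permutation, adjusted p = 0.00617) and egln3 with vhl. For vhl with hif1an, the adjusted p in this family was above 0.05 for rho (0.0568) and for r without replicates 1 and 2 (0.0889, exact permutation for both). The egln3 and vhl pair had r = 0.826 (exact permutation p = 0.00252; adjusted, p = 0.0353) and rho = 0.833 (exact permutation p = 0.00827; adjusted, p = 0.0772). Without replicates 1 and 5 its r was 0.754 (exact permutation p = 0.0317; adjusted, p = 0.222). The 6 pairs among the HIF alpha copies had r from -0.158 to 0.429. These values moved widely, to between -0.755 and 0.833, without the 2 samples farthest from the median of 1 gene of each pair. For epas1a with hif1aa, r went from 0.165 to 0.833 without replicates 4 and 7 (exact permutation, adjusted p = 0.222). For epas1b with hif1ab it went from 0.288 to -0.755 without replicates 2 and 3 (exact permutation, adjusted p = 0.315). The 16 pairs of a HIF alpha copy with a hydroxylase or vhl had r from -0.758 to 0.373. The lowest was that of hif1ab with vhl (rho = -0.400, exact permutation p = 0.0515 and 0.291, adjusted 0.199 and 0.638). Without replicates 2 and 7 its r was -0.212. In CPM, replicate 2 had the most hif1ab and the least vhl of the 12 libraries. Replicate 7 was high in both, at rank 4 for hif1ab and rank 3 for vhl.

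**Figure D4:**
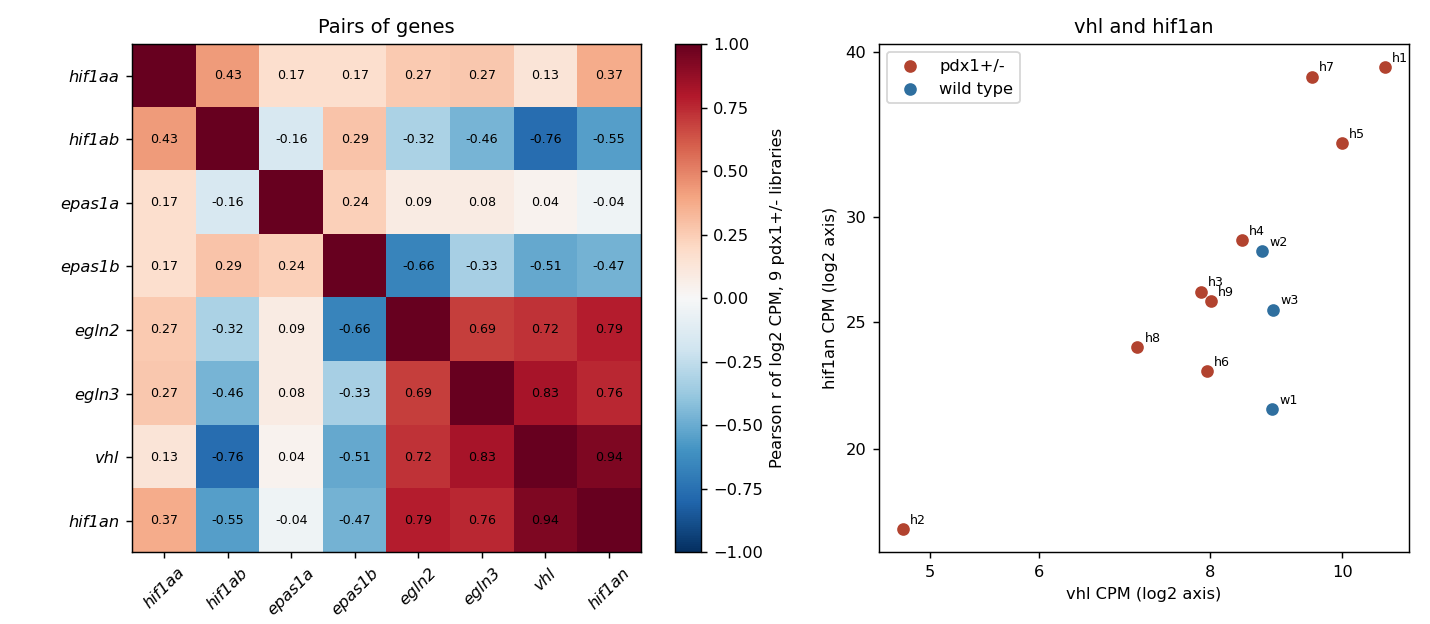
Left, Pearson's r of log2 CPM for each pair of the 8 genes over the 9 pdx1+/- libraries; right, CPM of hif1an against CPM of vhl on log2 axes in pdx1+/- (red, h1 to h9) and wild-type libraries (blue, w1 to w3). The lower right block of the matrix, egln2, egln3, vhl and hif1an, holds r from 0.695 to 0.937, and h2 and h1 are the ends of the scatter.

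Among all 14631 named genes with a mean of at least 2 CPM, the nearest to each member were taken by Pearson's r of log2 CPM centred within genotype over the 12 libraries. These values are the extremes of a large search and describe these libraries. For hif1an they were nagk, an N-acetylglucosamine kinase gene, at 0.905, then vhl and thsd1, both at 0.901. For vhl they were the tetraspanin gene tspan5a (0.926), the actin regulator gene wasf3b (0.923) and mybpc2b, a muscle myosin-binding protein gene (0.909), and hif1an came next, at rank 4. For hif1ab they were the adaptor gene nck1b (0.969), the sphingosine 1-phosphate receptor gene s1pr1 (0.968) and the flagellin receptor gene tlr5b (0.957). The nearest to hif1aa were cgref1 (0.928), the phosphatase subunit gene ppp2r5ea (0.913) and trim44 (0.911).

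For epas1b they were the prostaglandin receptor gene ptger2a (0.979), nlrp3 (0.927) and the kinase gene map3k3 (0.925), and for epas1a slc45a4b (0.929), ybey (0.887) and the kinase gene gsk3aa (0.882). egln2 was nearest to obscnb, an obscurin gene (0.900), thrab, a thyroid hormone receptor gene (0.893), and hemk1 (0.887), and egln3 to traf2a (0.882), the autophagy gene atg4b (0.850) and mybpc2b (0.841). Apart from vhl with hif1an, pairs among egln2, egln3, vhl and hif1an ranked lower in this search. For vhl, egln3 ranked 82 and egln2 323 of the 14631 genes, and for hif1an, egln2 ranked 37 and egln3 207. For egln2, hif1an ranked 26, vhl 99 and egln3 174. For egln3, vhl ranked 15, hif1an 96 and egln2 134. Values of r of this size were thus not particular to these genes. Skeletal muscle markers, with 5 of 5 in the files and mylpfa at 0 throughout, summed to only 4.18 to 31.2 CPM in pdx1+/- and 9.41 to 14 CPM in wild-type kidneys. Their correlation with egln2 over the 9 pdx1+/- samples was r = 0.685 and rho = 0.683 (exact permutation p = 0.0437 and 0.0503; adjusted over 120 relations, 0.398 and 0.532), and r = 0.551 without replicates 3 and 9. With the other 7 members r lay between -0.400 and 0.574, with 0.424 for egln3, 0.396 for hif1an and 0.276 for vhl (exact permutation, adjusted p of 0.479 or more).

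The genotypes were compared on the whole table with the edgeR quasi-likelihood test, 9 pdx1+/- against 3 wild-type samples. Of the 23732 genes tested, 1 was called at an adjusted p under 0.05, which is 0.00421% of them, and 0 of the 8 members were called. DESeq2 called 0.257% of genes and 0 of the 8. At an unadjusted edgeR p under 0.05 there was 1 member, epas1b, where 5.68% of all genes fell. CPM did not overlap between the genotypes for 1.40% of all genes and for 0 of the 8. Since this contrast was known when the genes were picked, nothing is read from these counts.

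Log2 fold changes, pdx1+/- over wild type, lay below 0 for 6 of the 8 members, with a median of -0.14, and for 48.3% of all genes, with a median of 0.01. For epas1b, CPM averaged 12.7 ± 3.23 in pdx1+/- kidneys (SD, n = 9) and 19.5 ± 5.08 in wild-type kidneys (SD, n = 3), a log2 fold change of -0.62 ± 0.22 (approximate SE; edgeR, adjusted p = 0.784). Without wild-type replicate 2, where epas1b was highest, it was -0.39. The values for epas1a and hif1aa were -0.32 ± 0.30 and -0.32 ± 0.26. Without wild-type replicate 3, where both were highest among wild-type libraries, they were -0.17 and -0.03, and without wild-type replicate 1 hif1aa was at -0.50. The value for egln2 was -0.19 ± 0.15. For vhl it was -0.10 ± 0.19 and for hif1ab -0.03 ± 0.15, while hif1an and egln3 had 0.19 ± 0.21 and 0.11 ± 0.30. For these 7 genes edgeR gave adjusted p-values of 0.967 to 0.999. Of 19 endothelial markers, 15 were in the files, 0 were at 0 and 0 were called, against 0.00421% of all genes. Their sum was 1050 to 1560 CPM in pdx1+/- kidneys (mean 1250) and 1410 to 1620 CPM in wild-type kidneys (mean 1510). Of the pdx1+/- libraries, only replicate 7, at 1560 CPM, was not below every wild-type library. The part of endothelial cells in the lower mean of epas1b was not tested. Over the 9 pdx1+/- samples that sum had r = -0.0321 with epas1b (rho = 0.0667; exact permutation p = 0.933 and 0.880; adjusted, 0.933 and 0.880; r = -0.0136 without replicates 4 and 7), r = -0.387 with epas1a (rho = -0.167; exact permutation p = 0.307 and 0.678; adjusted, 0.491 and 0.850; 0.774 without the same 2) and r = 0.389 with egln3 (rho = 0.383; exact permutation p = 0.299 and 0.312; adjusted, 0.491 and 0.771; 0.385 without them).

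**Figure D5:**
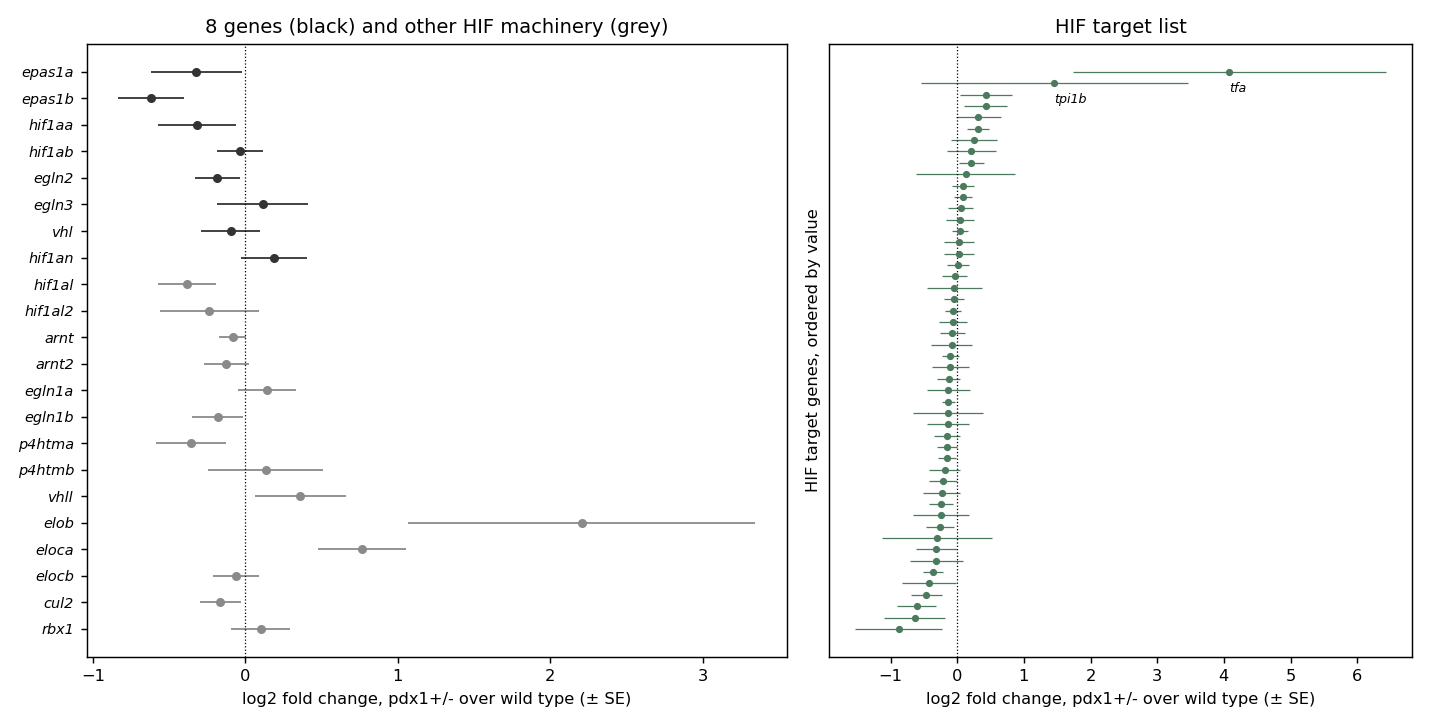
Log2 fold change, pdx1+/- over wild type, with its approximate SE, for the 8 genes (black) and 14 other genes of the HIF machinery (grey) on the left, and for 50 HIF target genes on the right, ordered by value. In edgeR 0 of the 8, 0 of the 14 and 0 of the 50 passed an adjusted p of 0.05, against 0.00421% of all genes. The genes elob (2.21), tfa (4.08) and tpi1b (1.45) have the highest values and wide errors. For tfa, where 1 pdx1+/- library was at 494.9 CPM and the others at 12.2 CPM or less, DESeq2 gave 0.37.

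The rest of the machinery was read from a list of 16 symbols, of which 14 were in the files and tested. In edgeR 0 of the 14 were called in either direction, against 0.00421% of all genes, and DESeq2 called 0, against 0.257%. An unadjusted edgeR p under 0.05 was found for 1 of the 14, against 5.68% of all genes. Log2 fold changes were below 0 for 8 of the 14 (57.1%), with a median of -0.07, against 48.3% of all genes. hif1al, for which the RefSeq table lists Hif-3alpha as another name, was about as abundant as hif1ab (53.9 ± 13.8 against 53.1 ± 9.26 TPM over the 12 libraries), at 49.6 ± 12.9 TPM in pdx1+/- kidneys (SD, n = 9) and 66.8 ± 7.08 TPM in wild-type kidneys (SD, n = 3), and had a log2 fold change of -0.39 ± 0.19 (edgeR, adjusted p = 0.896). hif1al2, also outside the 4 copies summed above, averaged 14.2 TPM in pdx1+/- and 17.3 TPM in wild-type kidneys and had -0.24 ± 0.32. The beta subunit genes arnt and arnt2 had 65.3 and 6.83 TPM in pdx1+/- kidneys and 71.4 and 7.72 TPM in wild-type kidneys, with log2 fold changes of -0.08 ± 0.09 and -0.12 ± 0.15. arnt ranked at the 3.76th percentile of biological variation. The values for egln1a and egln1b were 0.14 ± 0.19 and -0.18 ± 0.17, and those for the transmembrane prolyl hydroxylase genes p4htma and p4htmb -0.36 ± 0.23 and 0.13 ± 0.38.

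Partners of Vhl in the ligase come next. eloca, an elongin C gene, had 14.2 ± 3.86 TPM in pdx1+/- kidneys (SD, n = 9) and 8.84 ± 3.21 TPM in wild-type kidneys (SD, n = 3), with a log2 fold change of 0.76 ± 0.29 (edgeR, unadjusted p = 0.0202, adjusted p = 0.812). Its copy elocb was more abundant, at 39.5 and 42.9 TPM, with -0.06 ± 0.15. elob, the elongin B gene, lay in 2 ranges: 11.1 to 22.2 CPM in pdx1+/- replicates 2, 3, 6 and 7, and 0.771 to 2.35 CPM in the other 5, against 0.409, 1.19 and 3.24 CPM in wild-type kidneys. Its log2 fold change, 2.21 ± 1.14, was the highest of the list (edgeR, adjusted p = 0.910). Its estimated counts were not whole in any of the 12 libraries. The same held for eloca, arnt, hif1al2, egln1a, epas1a, epas1b, egln2 and egln3, and in 8 libraries for hif1al. This can arise where reads are divided between genes, so these levels, and the shares built on them, are less certain. The scaffold genes cul2 and rbx1 had -0.16 ± 0.14 and 0.10 ± 0.20, and vhll, a vhl-like gene, 0.36 ± 0.30.

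Genes known as HIF targets in mammals, by their zebrafish symbols, were read from a list of 54 symbols, of which 52 were in the files and 50 were tested. In edgeR 0 were called in either direction, against 0.00421% of all genes, and DESeq2 called 0, against 0.257%. An unadjusted edgeR p under 0.05 was found for 1 of the 50, against 5.68% of all genes. Log2 fold changes were below 0 for 32 of the 50 (64.0%), with a median of -0.09, against 48.3% of all genes. As the list was chosen with earlier results known, nothing is read from these counts. The 4 with the smallest p were bnip3lb, a mitophagy receptor gene, with 36.6 ± 5.67 CPM in pdx1+/- and 47.2 ± 9.62 CPM in wild-type kidneys, a log2 fold change of -0.37 ± 0.15, the clock repressor gene bhlhe41 (-0.61 ± 0.29), the glycolysis regulator gene pfkfb4b (-0.46 ± 0.23) and bnip3 (0.32 ± 0.17), also a mitophagy receptor gene (edgeR, adjusted p from 0.847 to 0.910). bhlhe41 was at 47.7 CPM in wild-type replicate 2, against 19.5 and 14.8 CPM in the other wild-type and 11.8 to 26.0 CPM in the pdx1+/- libraries. The vessel growth factor genes vegfaa and vegfab had -0.10 ± 0.13 and -0.13 ± 0.17, ldha, the lactate dehydrogenase gene, -0.07 ± 0.19, and pgk1, of glycolysis, -0.05 ± 0.15; these 4 were named after their values were seen. The erythropoietin gene epoa, likewise, was low, at 0.459 ± 0.227 CPM in pdx1+/- kidneys and 0.509 ± 0.156 CPM in wild-type kidneys.

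Each member was also set against the summed CPM of 15 cell type marker lists over the 9 pdx1+/- samples, a family of 120 added after the data were seen, and 0 passed after adjustment. The largest r in size over the 9 samples was that of epas1b with erythroid markers, at r = -0.893 and rho = -0.917 (exact permutation p = 0.00157 and 0.00131; adjusted, 0.189 and 0.157), and r = -0.727 without replicates 2 and 3. Of 10 erythroid markers, 10 were in the files and 0 were called, against 0.00421% of all genes. They summed to 5100 to 22000 CPM in pdx1+/- kidneys and 4350 to 22700 CPM in wild-type kidneys. Among wild-type kidneys, replicate 2 had 4350 CPM of erythroid markers and the most epas1b of all 12 libraries. Replicate 1 had 22700 CPM of these markers and, in CPM, the next most epas1b (18.59 CPM, against 18.27 CPM in pdx1+/- replicate 3). In TPM, pdx1+/- replicate 3 had more epas1b than wild-type replicate 1 (7.67 against 7.30 TPM). The part of erythroid cells in the level of epas1b was not tested. Next in size was macrophage markers with vhl (r = -0.843, rho = -0.55). Podocyte markers with hif1aa had r = 0.831 and rho = 0.667, and mural and stromal markers with hif1ab had r = 0.797 and rho = 0.667. The adjusted p of these r values was 0.231 to 0.376 (exact permutation). For podocyte markers with hif1aa, r was 0.785 without replicates 4 and 6, and 0.208 over the 12 libraries centred within genotype. Podocyte sums varied little, from 333 to 376 CPM in pdx1+/- and from 339 to 392 CPM in wild-type kidneys. For mural and stromal markers with hif1ab, r was 0.585 without replicates 2 and 9, and 0.826 over the 12 libraries centred within genotype. Endothelial markers had r = 0.805 and rho = 0.767 with hif1aa (exact permutation p = 0.0101 and 0.0214; adjusted, 0.298 and 0.532). Without replicates 4 and 7 that r was 0.936 (exact permutation p = 0.000595; adjusted, p = 0.0714), above 0.05 as well.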

How the data were processed

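Kidneys were kept in RNAlater, total RNA was isolated with an RNeasy kit, and libraries followed BGISeq-500 protocols, per the labels. The submitters' processing notes list Trim Galore 0.6.4, kallisto (version written as 0.4.6) and the build GRCz11; the sources used here do not give settings, annotation or use of strand. The authors deposited estimated counts per gene, without normalization, and TPM, which they scaled for length and library size. Gene symbols were matched through RefSeq's GRCz12tu annotation, where 25812 of 30238 IDs had one.

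Estimated counts were rounded, filtered with filterByExpr of edgeR 4.0.16 (minimum count 10), scaled by TMM and fitted by the quasi-likelihood test (robust, without covariates) in R 4.3.3, with Benjamini-Hochberg adjustment. The fit was also run on simulated data with larger added changes. That run does not give the power of the test for fold changes as small as those of the 8 genes. SEs are approximate (fold change over the square root of F). Log2 CPM used a prior count of 2, and level comparisons used log2(TPM + 0.01). Marker sums were taken as log2 of the summed CPM. Ratios of count to TPM of the 8 genes were constant between libraries to within 0.831%. Alternatives were other scalings and filters, DESeq2 1.42.0, limma 3.58.1, a replicate block, and leaving out samples singly. No pair of libraries matched within sampling noise (lowest chi-square per gene 17.3). Counting errors quoted cover counting only. The members, gene lists and marker lists were chosen with earlier results of these data known. Genes were named by rule: all members and machinery genes, the 4 targets with the smallest p, and the 3 genes most like each member; other names were chosen after values were seen.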

Additional observations from a re-analysis of the deposited data

Results flagged for a closer look

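One library stood far from its group. hif1ab was at 256.0 CPM in pdx1+/- replicate 2, and the gap to the next highest of the 9 pdx1+/- libraries was 0.722 of the whole range, above the critical value of 0.493 for 9 samples. Of 10 such groups examined (8 genes and 2 paralog shares), 1 was set apart, and chance sets apart about 1 group in 20. The same library had the least egln3, vhl and hif1an.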

How the results depend on the processing

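The count of genes called between genotypes, 1 in edgeR, was 61 in DESeq2 and 3 in limma-trend on log2(TPM + 0.1), from 1 to 4 with 1 sample left out (2 without pdx1+/- replicate 2, 4 without replicate 5), and 0 with the replicate number as a block. No member, machinery gene or target was called under any of the 21 alternatives. With the block, where only the samples numbered 1 to 3 inform the contrast, the log2 fold changes of epas1b, epas1a and hif1aa were -0.23, -0.05 and -0.02. Deviations from the group means had r = -0.216, -0.159 and 0.0964 between same-numbered samples, and from -0.35 to 0.324 between others. These few values cannot tell whether the numbers pair samples, and the labels do not say. The sign of hif1ab turned in 2 and that of egln3 in 4 of the 21 alternatives, both near 0 throughout (-0.12 to 0.05 and -0.03 to 0.22). The other 6 kept their sign, with ranges of -0.44 to -0.05 for epas1a, -0.50 to -0.02 for hif1aa, -0.78 to -0.23 for epas1b, -0.29 to -0.12 for egln2, -0.25 to -0.02 for vhl and 0.07 to 0.29 for hif1an. In CPM, hif1ab held 96.4% of the HIF-1 alpha pair in pdx1+/- and 95.7% in wild-type kidneys. With 1 library left out, epas1b over hif1aa ranged from 0.375 to 0.527 and epas1a over vhl from 0.155 to 0.360. Without the 2 farthest samples, r of vhl with hif1an was 0.890 (exact permutation, adjusted p = 0.0746), that of epas1b with egln3 turned to 0.211 and that of endothelial markers with epas1a to 0.774. On log2(TPM + 1), r of endothelial markers with epas1a was 0.0615 and with epas1b 0.514. The cause of these shifts was not tested. Counts of vhl and hif1aa were low, and their expected counting error in pdx1+/- libraries (8.25% and 9.32%) was the largest of the 8 genes. It was still well below their coefficients of variation there (21.2% and 26.6%).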

Other observations

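tfa and tpi1b, both on the HIF target list, had uneven levels between libraries and are described here after their values were seen. The transferrin gene tfa was at 494.9 CPM in pdx1+/- replicate 4 and between 1.16 and 12.2 CPM in the other 8, against 3.04, 3.58 and 3.83 CPM in wild-type kidneys. The hepatocyte markers, a list that also holds tfa, summed to 922 CPM in that library. The triosephosphate isomerase gene tpi1b was at 39.4 to 101.2 CPM in pdx1+/- replicates 4, 5, 6, 8 and 9 and at most 0.184 CPM in the other 4, against 33.5, 0.227 and 0 CPM in wild-type replicates 1 to 3. Its estimated counts were not whole in 10 of the 12 libraries, and were 0 in the others, pdx1+/- replicate 7 and wild-type replicate 3.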
